A study of Mus musculus with 12 samples.

Results

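The amino acid response is the transcription programme that mammalian cells run when amino acids or other nutrients fall short. The genes described here are 37 mouse genes of that programme, taken as a list by gene symbol: 26 regulators, enzymes and transporters and 11 aminoacyl-tRNA synthetases. The list was drawn up by name, with earlier results of these data known. Of the 37 genes, 36 had a probe set that named them alone, out of 18193 genes measured that way, and Pycr1 was not analysed here.

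The data are 12 Affymetrix mouse genome arrays of A2C12, 1 lung tumour cell line from mice that carried both a c-myc and a c-raf transgene on a C57BL/6 background. The 4 groups had 3 biological replicates each: untreated non-SP cells, untreated SP cells, non-SP cells after a monoclonal anti-EpCAM antibody, and SP cells after the same antibody. The antibody was given at 100 µg/ml for 48 h, and EpCAM, its target, is an adhesion protein of epithelial cells. All cells were stained with Hoechst 33342 at 5 µg/ml for 90 min and sorted by flow cytometry. The side population (SP) is the fraction that keeps little Hoechst dye because membrane pumps export it, and it is used as a stand-in for drug-resistant or stem-like tumour cells. Both transgenes were thus present in every group, all arrays came from 1 line, and the promoter of the transgenes is not given in the sources used here.

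As background, uncharged tRNA activates the kinase GCN2, which phosphorylates the translation factor eIF2, and other kinases reach the same point from protein misfolding, double-stranded RNA or lack of haem. General translation then slows while the transcription factor ATF4 is translated more. ATF4 pairs with C/EBP and AP-1 proteins on a composite site, the C/EBP-ATF response element, and raises genes for amino acid synthesis, amino acid uptake and tRNA charging, as well as feedback genes such as Trib3 and Ppp1r15a. Tumour cells often run this programme at a high level, since they use much serine, glycine, asparagine and cysteine.

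The core of that composite site, TGATGNAA or its reverse TTNCATCA, was searched on both strands of the RefSeq promoter windows (build GRCm38.p6, from 250 bases before to 50 after the start of the gene). No other motif was searched. A window was at hand for 30 of the 37 listed genes, and 11 of these 30 (36.7%) held the core, against 3.97% of all 32851 windows and 4.51% of 27025 genes. The stretches below show the 8 sites that lie upstream of the start, because the members can be read against the element they are known for. The core is in capitals, each stretch is given in the direction of the gene, and a match is a run of letters, not a measured binding site.
Atf3, chr1:191183410-191183469, minus strand: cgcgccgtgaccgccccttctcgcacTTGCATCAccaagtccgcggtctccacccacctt
Nupr1, chr7:126625547-126625606, minus strand: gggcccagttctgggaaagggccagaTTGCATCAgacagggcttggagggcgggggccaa
Chac1, chr2:119351023-119351082, plus strand: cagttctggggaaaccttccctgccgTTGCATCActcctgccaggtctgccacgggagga
Asns, chr6:7693210-7693258, minus strand: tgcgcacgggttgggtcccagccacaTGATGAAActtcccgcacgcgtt
Pycr1, chr11:120643818-120643877, minus strand: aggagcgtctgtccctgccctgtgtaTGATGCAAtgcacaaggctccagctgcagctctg
Aars, chr8:111033704-111033763, plus strand: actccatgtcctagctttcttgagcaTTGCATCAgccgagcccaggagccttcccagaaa
Gars, chr6:55037945-55038000, plus strand: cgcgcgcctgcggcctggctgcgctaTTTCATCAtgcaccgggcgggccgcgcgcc
Tars, chr15:11399659-11399699, minus strand: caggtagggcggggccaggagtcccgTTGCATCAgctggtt

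Counted in bases from the start of the gene, the core began at -110 in Atf3 and in Nupr1, -193 in Chac1, -23 in Asns, -103 in Pycr1, -112 in Aars, -30 in Gars and -15 in Tars. In Trib3, Iars and Yars it lay just inside the transcribed part, at 15, 8 and 4, as TTACATCA, TTGCATCA and TGATGCAA, and Aars held a further copy, TTTCATCA, at 10. Among the members with a window and a probe set, 10 held the core and 19 did not. Their median SP minus non-SP differences were 0.18 and 0.09 on the log2 scale in untreated and 0.037 and 0.025 in antibody-treated cells, which is a description of these 29 genes.

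The line and its libraries were looked at before the members. The 7 fibroblast markers had a median of 9.95 to 11.4 over the 12 arrays (Col1a2 12.6, Col3a1 12.3), the 7 epithelial markers 5.79 to 7.40 (Krt19 11.7, Epcam 8.11, Cdh1 6.35) and the 6 measured alveolar type II markers 5.76 to 6.29 (Sftpc 5.64). Gene means within a list lay far apart, at 4.15 (Lum) to 12.6 (Col1a2) for fibroblast and 5.43 (Cldn4) to 11.7 (Krt19) for epithelial markers. Alveolar type II markers ran from 5.04 (Sftpa1) to 7.44 (Sftpb). Dcn, a fibroblast marker, spanned 7.85 to 11.38 over the arrays. Leukocyte and endothelial markers had medians of 4.86 to 5.87 and 4.06 to 4.92, below the array medians of 5.72 to 6.06 (over all probe sets) except for part of the leukocyte range. Of these markers Cd68 (7.33), Cd3e (6.76), Lyz2 (6.22) and Kdr (6.70) had means above the array medians, and the others below. Of the surfactant genes that define the alveolar type of lung cell, Sftpa1 (5.04), Sftpd (5.15) and Sftpc had means below the array medians and Sftpb (7.44) one above them, while fibroblast collagens were at high signal in all 4 groups. Napsa (6.76) and Slc34a2 (6.33), the type II markers that are not surfactant genes, also had means above the array medians. In 2 arrays, the antibody-treated non-SP and SP arrays numbered 2, the actin probe sets at the 3′ end exceeded those at the 5′ end by 0.895 and 1.03 log2 units, against at most 0.733 elsewhere, and the same held for Gapdh at 0.456 and 0.497 against at most 0.231. Counts of members, and the members whose values these arrays moved most, are given also without them. The next highest values, 0.733 and 0.231, were those of untreated SP array 3, whose non-SP pair had 0.404 and 0.0993. Whether RNA quality has a part in the differences of untreated pair 3 was not tested. SP and non-SP arrays of 1 number and treatment deviated together from their group means across genes, with correlations of 0.55 to 0.84 in all 6 pairs, so such arrays are set against each other below as pairs, although the labels do not say that they came from 1 culture.

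All values are log2 array signals, in which 1 unit is a 2-fold step. A signal also depends on its probe, so no order among genes is read from the levels, and 9 of the 36 members were read from probe sets whose names (x_at or s_at) mark possible signal from related transcripts. Each array holds the RNA of a whole sorted fraction, so fewer cells with a transcript and less of it per cell cannot be told apart.

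The regulators were at high signal throughout. Atf4, the central factor, measured 13.34, 13.11 and 13.16 in untreated non-SP replicates 1 to 3 and 13.41, 13.07 and 13.08 in untreated SP cells. After the antibody it measured 13.48, 13.07 and 13.19 in non-SP and 13.31, 12.85 and 13.22 in SP cells. The 4 groups overlapped fully, and the whole span of Atf4 was 0.62 log2 units. Much of the control of ATF4 is at translation, which an array of RNA does not measure.

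Of its partner and follow-on factors, Atf3 spanned 10.31 to 11.43 over the 12 arrays, Ddit3 (CHOP, a pro-apoptotic C/EBP factor) 11.58 to 12.60, Cebpb 12.03 to 12.80 and Nupr1, a small stress-induced chromatin protein, 11.23 to 12.55. The feedback genes Trib3, a pseudokinase that restrains ATF4, and Ppp1r15a (GADD34), which brings a phosphatase to eIF2, spanned 10.30 to 11.46 and 10.23 to 10.84. Genes that slow growth signalling through mTORC1 or its output were Sesn2 at 6.97 to 7.53, Ddit4 (REDD1) at 12.18 to 13.11 and Eif4ebp1, which holds back cap-dependent translation, at 11.41 to 12.08. Stc2, a secreted glycoprotein, spanned 7.42 to 8.57. Chac1, which cleaves glutathione, had the widest span of the 36 members, 7.89 to 10.22, and the largest SD within groups (0.72, pooled over the 4 groups).

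Enzymes of serine synthesis were at 12.39 to 12.74 for Phgdh, 11.88 to 12.77 for Psat1 and 10.72 to 11.29 for Psph. Phgdh, the first enzyme of that route, had the smallest pooled SD of the members (0.12). The mitochondrial folate enzymes Shmt2 and Mthfd2, which pass on the carbon of serine, spanned 10.86 to 11.54 and 9.96 to 10.63. Asns, the enzyme that makes asparagine, spanned 11.53 to 12.56, Aldh18a1, the first enzyme of proline synthesis, 11.42 to 11.96, Cth, which releases cysteine from cystathionine, 8.80 to 10.34, and Cbs, the step before it, 7.21 to 7.97.

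Among the transporters, Slc7a5 and its partner chain Slc3a2, which together import leucine and other large neutral amino acids, spanned 10.73 to 11.43 and 11.92 to 12.63. Slc7a1 (CAT1), the common importer of arginine and lysine, spanned 10.46 to 11.73. Its relative Slc7a3 (CAT3) spanned 5.21 to 6.27, around the array medians over all probe sets. The mean of Slc7a3 was above that of 34.8% of genes. Each of the 11 synthetases, which load amino acids onto tRNAs, spanned 0.52 (Eprs and Yars) to 0.72 (Tars) log2 units over all 12 arrays. Over the members the median pooled SD was 0.257, near the 0.266 of all genes.

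**Figure D1:**
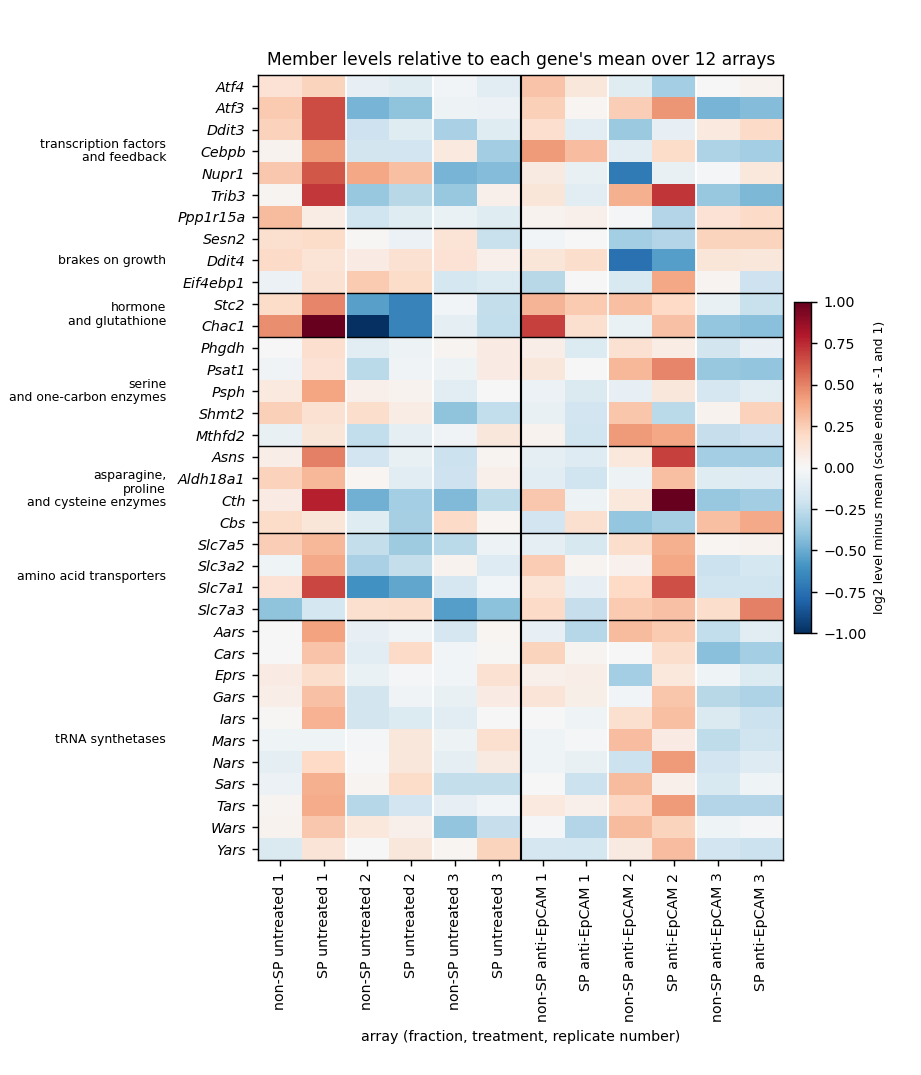
Each row is a member and each column an array, ordered so that the non-SP and SP arrays of 1 replicate number stand side by side. Colour gives the log2 level minus that gene's mean over 12 arrays (red higher, blue lower, ends at -1 and 1, so Chac1 and Cth reach the ends). The columns SP untreated 1 and SP anti-EpCAM 2 are red for most members.

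SP untreated 1 and SP anti-EpCAM 2 held most of the high values. The untreated SP array numbered 1 was the highest of the 12 for 16 of 36 members (all genes 17.8%), and the antibody-treated SP array numbered 2 for another 10 (all genes 5.2%). Together they held the highest value of 26 of 36 members, against 23% of all genes. The untreated SP array 1 was among the 3 highest for 29 of 36 members (all genes 42.9%). The median member stood 0.31 above its own mean in SP untreated 1 and 0.27 above it in SP anti-EpCAM 2, where all genes had medians of 0.13 and -0.10. The second of these is an array with the high actin 3′ to 5′ difference of 1.03, and the first had one of 0.209, near the lowest of the 12. Whether RNA quality has a part in the values of the second was not tested.

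The first comparison asks how SP cells differ from non-SP cells without treatment. No member passed the threshold: limma with Benjamini-Hochberg adjustment called 0 of 36 members and 0% of the 18193 genes at an adjusted p under 0.05, with no adjusted p below 1. Without adjustment, 0 members and 4 genes (0.022%) had a p under 0.05 in this fit, which leaves the pairs out. With the pairs as a block, 1 member and 1.68% of genes did, and 0% passed the adjusted threshold. The mean was higher in SP cells for 28 of 36 members, against 53.7% of all genes, with a median difference of 0.13 log2 units over members and 0.01 over all genes. All 11 synthetases had a higher SP mean, by 0.11 (Eprs) to 0.21 (Aars), and did so too with centred arrays and with arrays quantile normalised again. This held for the probe sets used. Other Eprs probe sets, with means of 9.14 and 9.19, gave -0.03 each, and a further one of low signal (mean 4.78) gave 0.08. Further probe sets of the other synthetases, where there were any, lay above 0. For the median member the 95% interval reached 0.45 to either side in the fit without pairs, and 0.26 with the pairs as a block. Steps of the size of the median difference or of the synthetase differences could thus not be resolved gene by gene.

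Within pairs the direction recurred. SP was higher in 3 of 3 untreated pairs for 19 of 36 members, while 13.5% of all genes did so (14.7% of the 2851 genes with a mean of at least 10, a group that held 27 members, 15 of them higher in 3 of 3). Among the 19 were 10 of the 11 synthetases (Wars was the other one) and Ddit3, Trib3, Phgdh, Psat1, Mthfd2, Asns, Cth, Slc7a1 and Slc7a3. These counts hold for the probe sets used. In the Eprs probe sets with means of 9.14 and 9.19, SP was lower in pairs 1 and 3. In the other Cars probe set it was lower in pair 3. Cbs was the single member lower in 3 of 3 pairs (all genes 10.3%). These counts are read beside the shares of all genes only, since the members were proposed with results of these data known.

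The 3 untreated pairs differed in size. In pair 1 the SP array was higher for 32 of 36 members (all genes 53.4%) with a median of 0.28, in pair 2 for 24 (49.1%) with a median of 0.06, and in pair 3 for 26 (50.3%) with a median of 0.12. With pair 1 left out, 27 of 36 members and 11 of 11 synthetases still had a mean difference above 0 (all genes 52.4%), but the median member stood at 0.08 and the median synthetase at 0.12. Without it, 19 members, 10 of them synthetases, were higher in both remaining pairs (all genes 25.3%).

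Trib3 had the largest difference of the 36 members. It measured 10.77, 10.36 and 10.36 in non-SP and 11.45, 10.47 and 10.80 in SP replicates 1 to 3. SP array 1 stood apart and SP array 2 lay within the non-SP range, so the groups overlapped. The difference was 0.40 ± 0.32 (SE, n = 3 per group), or 1.32-fold, with a 95% interval of -0.28 to 1.09 and an adjusted p of 1 (limma, Benjamini-Hochberg). Its second probe set gave 0.37. With the pairs as a block Trib3 was the 1 member under an unadjusted p of 0.05, as were 1.68% of all genes, and again 0% of genes passed the adjusted threshold.

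Asns, which carries the core at its promoter (above), measured 11.95, 11.69 and 11.67 in non-SP and 12.38, 11.81 and 11.91 in SP cells. Each SP value exceeded its pair by 0.43, 0.12 and 0.24, and the groups overlapped. The difference was 0.27 ± 0.25 (SE, n = 3 per group). Ddit3 followed the same order of pairs, with 12.18, 11.74 and 11.63 in non-SP against 12.60, 11.84 and 11.84 in SP cells and a difference of 0.24 ± 0.24. The other probe set of Ddit3, at a lower mean signal of 6.92, gave -0.20, of opposite sign.

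Chac1 measured 9.39, 7.89 and 8.84 in non-SP and 10.22, 8.26 and 8.68 in SP cells. Its replicates lay further apart than its fractions: the difference was 0.35 ± 0.48, and SP was lower in pair 3. Cth measured 9.35, 8.80 and 8.83 in non-SP and 10.05, 8.93 and 9.02 in SP cells, a difference of 0.34 ± 0.37, with 0.70 in pair 1 against 0.13 and 0.19 in the others. Without pair 1 the differences were 0.27 for Trib3, 0.18 for Asns, 0.15 for Ddit3, 0.11 for Chac1 and 0.16 for Cth. Atf4 itself gave -0.01 ± 0.18, so the mean of the factor stood level between fractions while its known targets stood mostly above 0.

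Among the synthetases, Nars, the enzyme for asparagine, measured 12.19, 12.28 and 12.17 in non-SP and 12.48, 12.39 and 12.36 in SP cells. Cars, for cysteine, measured 9.38, 9.28 and 9.36 in non-SP and 9.67, 9.58 and 9.40 in SP cells. Yars, for tyrosine, measured 8.92, 9.07 and 9.09 in non-SP and 9.20, 9.18 and 9.28 in SP cells. For these 3 genes every SP array was above every non-SP array, which no other member showed (all genes 1.24% higher without overlap and 1.13% lower without overlap, of which no member). The differences were 0.20 ± 0.16 for Nars, 0.21 ± 0.19 for Cars and 0.19 ± 0.17 for Yars (SE, n = 3 per group), and none passed limma's Benjamini-Hochberg threshold (adjusted p of 1). Second probe sets gave 0.26 for Nars and 0.09 for Cars, but in both the groups overlapped. The lowest SP and highest non-SP values there were 11.70 and 11.74 for Nars and 6.56 and 6.75 for Cars. Yars had 1 probe set only.

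By role, 4 of 7 transcription and feedback genes were above 0 in the untreated comparison, 1 of 3 growth brakes (median -0.03), 1 of 2 for Stc2 and Chac1, 4 of 5 serine and one-carbon enzymes (median 0.13), 3 of 4 asparagine, proline and cysteine enzymes (0.17), 4 of 4 transporters (0.12) and 11 of 11 synthetases (0.17). The growth brakes Sesn2 and Ddit4 (-0.13 and -0.03), Cebpb (-0.02), Ppp1r15a (-0.07) and Cbs (-0.15) lay at or below 0.

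**Figure D2:**
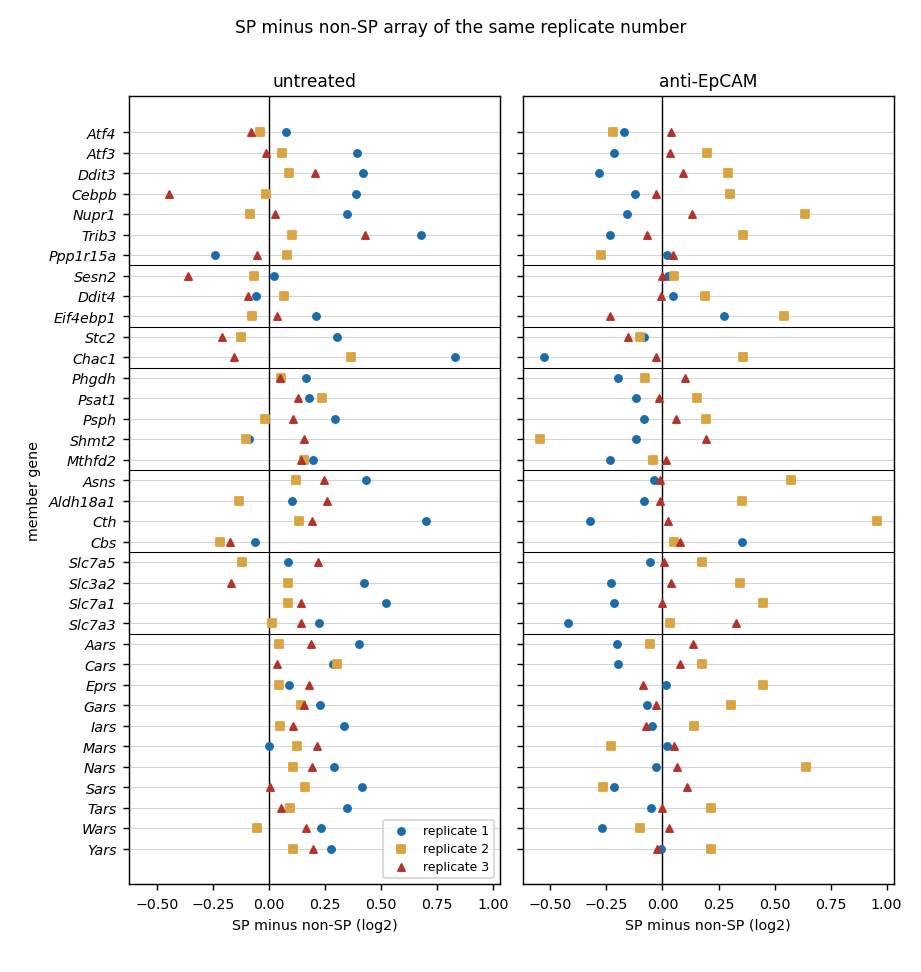
Each point is the log2 level of an SP array minus the non-SP array of the same replicate number, for untreated cells (left) and antibody-treated cells (right), by member. Untreated points lie mostly to the right of 0 (32, 24 and 26 of 36 members in replicates 1, 2 and 3), and treated points split by replicate (7, 26 and 20).

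**Figure D3:**
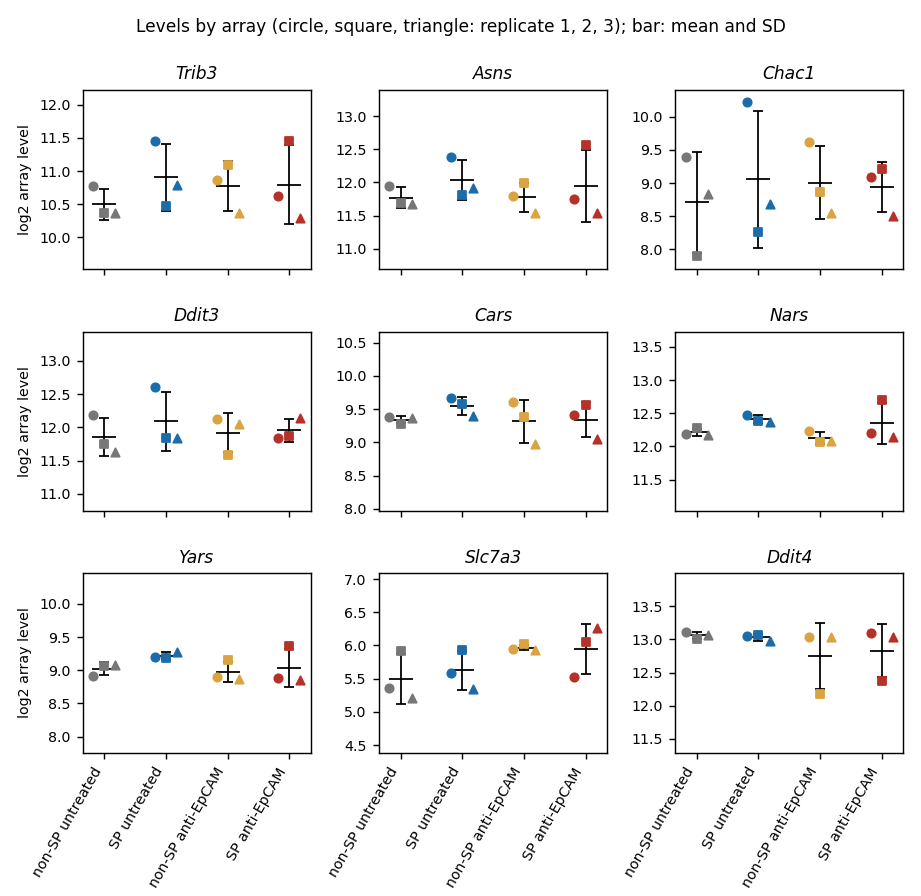
Log2 levels of 9 members in the 12 arrays, with a bar for the mean and SD of each group of 3. Every panel spans the same number of log2 units, so Chac1 shows the widest scatter, and Nars, Cars and Yars show untreated SP arrays above all untreated non-SP arrays.

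The same comparison was made after the antibody. limma with Benjamini-Hochberg adjustment called 0 of 36 members and 0% of genes, with a lowest adjusted p of 1.00, and at an unadjusted p under 0.05 it found 0 members and 0.698% of genes. The SP mean was higher for 24 of 36 members (all genes 42.3%), with a median of 0.03 against -0.03 for all genes, and for 7 of 11 synthetases (median 0.02, and -0.00029 with arrays quantile normalised again). SP was higher in 3 of 3 treated pairs for 1 member, Cbs (all genes 6.56%), and lower in 3 of 3 for 1 member, Stc2 (all genes 11.1%). No member had SP arrays all above or all below the non-SP arrays (all genes 0.572% and 1.78%).

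The treated pairs disagreed in sign. In pair 1, 7 of 36 members were higher in SP (all genes 43.8%) with a median of -0.12, in pair 2, 26 of 36 (38.1%) with a median of 0.19, and in pair 3, 20 of 36 (53.1%) with a median of 0.02. Pair 2 consists of both arrays with the high actin and Gapdh 3′ to 5′ differences. Without it the median turned to -0.05, and 8 of 36 members and 2 of 11 synthetases were above 0 (all genes 48.3%). The part of RNA quality in this was not tested.

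Asns shows the split. After the antibody it measured 11.79, 11.99 and 11.54 in non-SP and 11.75, 12.56 and 11.53 in SP cells. Only SP array 2 was above its pair, by 0.58, and the other pairs gave -0.04 and -0.01. The difference of 0.18 ± 0.25 became -0.02 without pair 2, and its second probe set gave -0.01. Cth did likewise, at 9.54, 9.38 and 8.90 in non-SP and 9.22, 10.34 and 8.92 in SP cells, with pair differences of -0.32, 0.96 and 0.02. Its mean difference of 0.22 became -0.15 without pair 2. Trib3 gave 10.86, 11.10 and 10.36 against 10.63, 11.46 and 10.30, a mean difference of 0.02 ± 0.32 that became -0.15 without pair 2.

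The 4 members with the lowest p in treated cells were Nars at 0.23 ± 0.16, Eif4ebp1 at 0.19 ± 0.19, Eprs at 0.13 ± 0.15 and Shmt2 at -0.16 ± 0.21. Nars measured 12.23, 12.06 and 12.08 in non-SP and 12.20, 12.70 and 12.14 in SP cells, so that pair 2 differed by 0.64 and the others by -0.03 and 0.06. Without pair 2 Nars gave 0.018 and Eif4ebp1 0.021. Eif4ebp1 was read from an x_at probe set (mean 11.69). Another of its probe sets, at a like signal (mean 11.67), gave -0.11, of opposite sign. A further one at lower signal (mean 6.80) gave 0.06. Eprs, the glutamyl-prolyl enzyme, and Shmt2 turned to -0.04 and 0.04 without pair 2. Another probe set of Eprs gave 1.00, with 7.55 in non-SP and 10.14 in SP cells of pair 2. Its s_at probe set gave 0.48, and a further one of low signal (mean 4.78) gave -0.14. The probe sets of this gene thus disagreed in size and in sign. The fixed genes Atf4, Ddit3 and Chac1 gave -0.12 ± 0.18, 0.03 ± 0.24 and -0.07 ± 0.48, and a further probe set of Atf4 gave 0.34, of opposite sign.

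Averaged over both treatments, SP exceeded non-SP in 31 of 36 members (all genes 44.2%) and in 11 of 11 synthetases (10 of 11 with arrays quantile normalised again), with a median of 0.08 over members and -0.01 over all genes. Without treated pair 2 these were 29 of 36 members (all genes 49.9%), 10 of 11 synthetases (Wars at -0.0028) and a median of 0.039, and without untreated pair 1 they were 26 members (all genes 43.5%), 9 synthetases and 0.045. limma with Benjamini-Hochberg adjustment called 0 members and 0% of genes (lowest adjusted p of 1), and 0 members and 0.104% of genes had an unadjusted p under 0.05. No member was higher in 6 of 6 pairs (all genes 0.682%). Ddit3, Cth, Slc7a3, Cars, Eprs, Mars and Nars were higher in 5 of 6, 7 of 36 members against 6.12% of all genes. The exception was treated pair 1 in 5 of them, treated pair 2 for Mars and treated pair 3 for Eprs. Other probe sets were higher in 3 of 6 pairs for Ddit3, Cars and Eprs and in 5 of 6 for Nars.

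The 4 members with the lowest p were Nars at 0.21 ± 0.12, Asns at 0.22 ± 0.18, Yars at 0.13 ± 0.12 and Cth at 0.28 ± 0.26 (SE from the fit of group means, which leaves the pairs out). Without treated pair 2 they gave 0.11, 0.12, 0.089 and 0.097. With the pairs as a block Asns was the 1 member under an unadjusted p of 0.05 (all genes 2.13%), and 0% of genes passed the adjusted threshold. Asns was read from an x_at probe set (mean 11.88), and its other probe set (mean 11.87) gave 0.10 over both treatments. Atf4, Ddit3, Trib3 and Chac1 gave -0.07, 0.14, 0.21 and 0.14, and without treated pair 2 -0.040, 0.072, 0.13 and 0.034. The 5 members below 0 were Atf4, Ppp1r15a, Sesn2, Stc2 and Shmt2.

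The second question of the design is what the antibody does in each fraction. In non-SP cells, limma with Benjamini-Hochberg adjustment called 0 of 36 members and 0% of genes (lowest adjusted p of 0.988), and 0 members and 3.22% of genes had an unadjusted p under 0.05. Members stood above 0 in 25 of 36 cases, while 29.1% of all genes did, and treated arrays had medians of 5.72 to 5.86 over probe sets against 5.80 to 6.06 in untreated ones. The median was 0.05 for members and -0.10 for all genes. With each array centred on its median, which shifts all genes by about the same amount, 33 of 36 members and 61.8% of all genes were above 0, with medians of 0.21 and 0.05. Without the treated array 2, 18 of 36 members and 29.5% of all genes were above 0, with medians of -0.0016 and -0.08.

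Slc7a3 was the member with the largest difference. It measured 5.36, 5.92 and 5.21 in untreated and 5.95, 6.02 and 5.94 in treated non-SP cells. All 3 treated arrays were above all 3 untreated ones (5.94 against 5.92 at the closest), and it was the single member without overlap (all genes 1.19% higher and 6.62% lower). The difference was 0.47 ± 0.23 (SE, n = 3 per group), or 1.39-fold, with a 95% interval of -0.03 to 0.98 and a limma Benjamini-Hochberg adjusted p of 0.988. Its signal lies near the array medians over all probe sets, but below the array medians over genes (6.91 to 7.19).

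Ddit4 measured 13.11, 13.00 and 13.07 in untreated and 13.04, 12.18 and 13.04 in treated non-SP cells. The low mean after the antibody, -0.31 ± 0.24, thus came from treated array 2, one of the pair with high actin 3′ to 5′ differences, and SP array 2 was low as well at 12.37. Without that array the difference of Ddit4 was -0.020. Stc2 gave 0.32 ± 0.28 and Mthfd2 0.19 ± 0.20, and Mthfd2 gave 0.018 without treated array 2. Stc2 measured 8.26, 7.54 and 8.05 in untreated and 8.42, 8.38 and 8.01 in treated non-SP cells, so untreated array 2 was the low one, and its other probe sets gave 0.12 and 0.02. Atf4, Ddit3, Trib3, Asns and Chac1 gave 0.04, 0.07, 0.28, 0.00 and 0.30, each within 1 SE of 0.

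In SP cells the antibody comparison had 0 of 36 members and 0% of genes called (limma, Benjamini-Hochberg, lowest adjusted p 1 for members and 0.776 for all genes), with 0 members and 4.59% of genes at an unadjusted p under 0.05. In all, 11 of 36 members were above 0, against 21.6% of all genes, and 27 of 36 were above the median of all genes, where 50% lie by construction. The medians were -0.06 for members and -0.12 for all genes, and with centred arrays 27 of 36 members and 50.8% of genes were above 0, with medians of 0.06 and 0.0030. Without the treated array 2, 9 of 36 members and 32% of all genes were above 0, with medians of -0.18 and -0.10, and without the untreated array 1, 24 members and 32.9% of all genes, with medians of 0.06 and -0.09. No member had groups without overlap (all genes 0.434% higher and 8.04% lower). Slc7a3 gave 0.33 ± 0.23, from 5.58, 5.94 and 5.35 to 5.53, 6.05 and 6.27. Cars, Yars and Psph gave -0.21 ± 0.19, -0.18 ± 0.17 and -0.18 ± 0.16, and Atf4, Ddit3, Trib3, Asns and Chac1 gave -0.06, -0.14, -0.11, -0.09 and -0.12.

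By role, the 4 transporters were above 0 with the antibody in both fractions, at 0.12 to 0.47 in non-SP and 0.08 to 0.33 in SP cells, and also with centred arrays and with arrays quantile normalised again. In SP cells this rested on single arrays. Without treated SP array 2, Slc7a5, Slc3a2 and Slc7a1 gave -0.039, -0.078 and -0.18, and without untreated SP array 2 they gave -0.064, -0.046 and -0.20, while Slc7a3 stayed above 0 at 0.27 and 0.48. In non-SP cells the 4 transporters were above 0 without any 1 array, at the lowest 0.024 (Slc3a2). Slc7a1 measured 11.21, 10.46 and 10.90 in untreated and 11.20, 11.26 and 10.87 in treated non-SP cells, a difference of 0.25 ± 0.31. The untreated array 2 was the low one, and without it the difference was 0.057. Another probe set of Slc7a1 (mean 10.09) gave 0.05 in non-SP and -0.05 in SP cells. A further one of low signal (mean 4.65) gave -0.45 and -0.38. That all 4 transporters were above 0 in both fractions thus held for the probe sets used.

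The 3 growth brakes were below 0 in non-SP cells (-0.15 to -0.31), as they were with arrays quantile normalised again (median -0.048). With centred arrays 2 of 3 were just above 0, at 0.0015 and 0.0085. The synthetases had medians of 0.04 in non-SP and -0.10 in SP cells, with 7 and 1 of 11 above 0. With centred arrays, a shift common to all genes, their medians were 0.19 and 0.02 with 11 and 6 above 0, and with arrays quantile normalised again 0.14 and -0.0082 with 10 and 5 above 0. In SP cells the medians of all genes were -0.12, 0.0030 and -0.0047 in these 3 settings, close to those of the synthetases. Without treated array 2 the synthetases had medians of -0.012 in non-SP and -0.23 in SP cells, with 5 and 0 of 11 above 0.

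**Figure D4:**
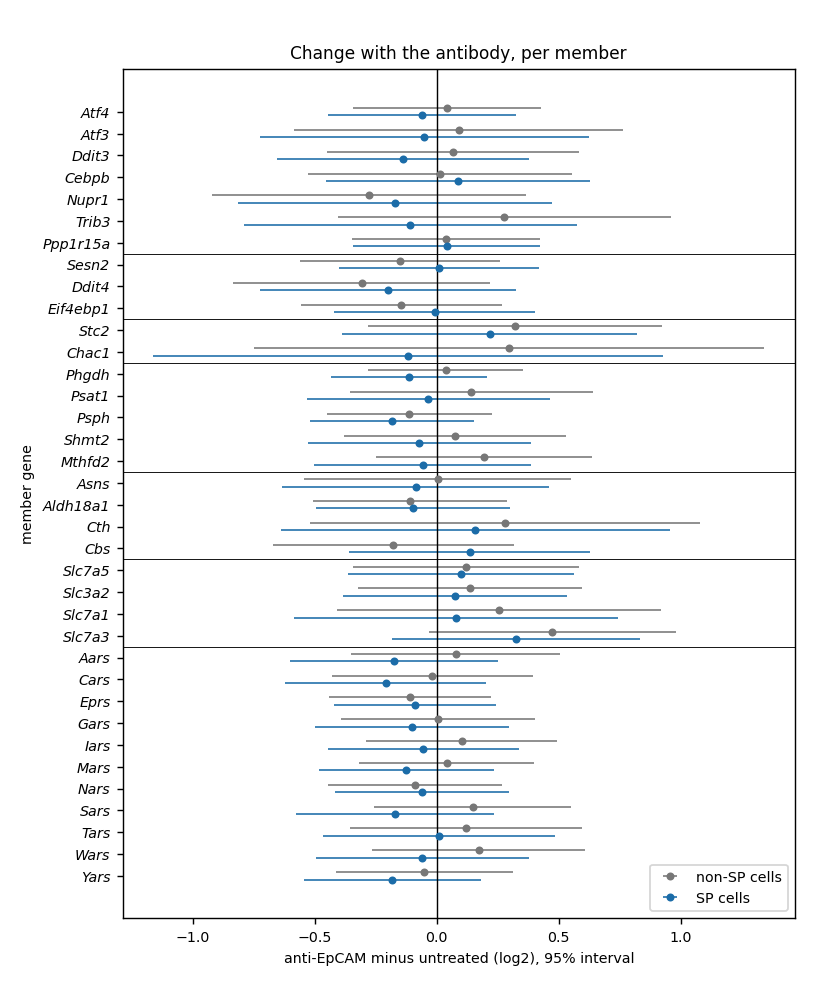
Anti-EpCAM minus untreated on the log2 scale for each member, with 95% intervals from limma, in non-SP cells (grey) and SP cells (blue). Every interval includes 0, and Slc7a3 in non-SP cells comes nearest to leaving it (-0.03 to 0.98).

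Whether the SP difference itself changed with the antibody is the difference of differences, treated minus untreated. It called 0 of 36 members and 0% of genes (limma, Benjamini-Hochberg, lowest adjusted p of 1), with 0 members and 0.236% of genes at an unadjusted p under 0.05. The value was above 0 for 10 of 36 members (all genes 43.6%), with a median of -0.12 against -0.03, and for 2 of 11 synthetases. Without treated pair 2 it was above 0 for 5 members and 0 synthetases (all genes 47.3%), with a median of -0.18 (all genes -0.012). Without untreated pair 1 it was above 0 for 13 members and 2 synthetases (all genes 43.5%). The median was then -0.047, close to the -0.034 of all genes. A change of the fraction difference with the antibody was thus not shown for any member. The median member's interval reached 0.64 to either side, or 0.36 with the pairs as a block. Sars gave -0.32 ± 0.26, Cbs 0.31 ± 0.32, Aars -0.25 ± 0.28 and Mthfd2 -0.25 ± 0.29. For Sars, the seryl enzyme, the SP value exceeded its pair by 0.42, 0.16 and 0.00 in untreated cells, and the treated pairs gave -0.22, -0.26 and 0.11. Trib3 and Chac1 gave -0.39 ± 0.45 and -0.41 ± 0.68, and Atf4, Ddit3 and Asns -0.10, -0.20 and -0.09.

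Pathway genes outside the list were read the same way, and 0 of 54 passed the adjusted threshold in any of the 6 comparisons. Upstream, 12 measured genes of the eIF2 kinases and the eIF2 machinery had a median of 0.01 in untreated SP against non-SP cells, and 0 of them were higher in 3 of 3 pairs. Eif2ak2 (PKR), the double-stranded RNA sensor, gave -0.37 there and 0.70 for the interaction, and Eif2ak4 (GCN2), the sensor of uncharged tRNA, gave 0.27 in treated cells and 0.15 over both. Downstream, 19 further amino acid response genes had 15 above 0, a median of 0.06 and 6 higher in 3 of 3 untreated pairs: Cebpg, Jdp2, Gpt2, Got1, Aldh1l2 and Xpot. Got1, the cytosolic aspartate aminotransferase, gave 0.30 in untreated cells and Gpt2, an alanine aminotransferase, 0.34 in treated cells and 0.25 over both.

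The 8 further cytosolic synthetases had a median of 0.06 in the untreated comparison, and 7 were above 0, with 2 of 8 (Farsb and Lars) higher in 3 of 3 pairs beside 10 of 11 for the members. Lars, for leucine, gave 0.30, and Vars, for valine, had the lowest value of -0.19. The 15 mitochondrial synthetases had a median of 0.05, 11 above 0 and 1 of 15 (Mars2) higher in 3 of 3. The differences between these groups of synthetases were not tested. With the antibody, 14 of 15 mitochondrial synthetases were below 0 in non-SP and 13 in SP cells, with medians of -0.16 in both, where all genes stood at -0.10 and -0.12. Above 0 were thus 1 and 2 of the 15, against 29.1% and 21.6% of all genes, so most genes were below 0 as well. Further genes named by the same rule were Fars2 (-0.08) in untreated cells, Hars (0.15) and Iars2 (0.22) in treated cells, and Vars (-0.15) and Iars2 (0.12) over both. With the antibody they were Eif2ak4 (-0.28), Vegfa (-0.32), Hars (-0.14) and Hars2 (-0.34) in non-SP and Gcn1l1 (-0.31), Fgf21 (-0.28), Lars (-0.19) and Wars2 (-0.35) in SP cells. In the interaction they were Vegfa (0.39), Lars (-0.30) and Aars2 (-0.26).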

How the data were processed

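The authors deposited log2 values of 12 arrays, made by RMA per the submitters' processing notes. Array medians ran from 5.72 to 6.06, and the RMA software is not given in the sources used here. Of 45101 probe sets, 34958 had 1 gene symbol in the platform annotation, and per gene that with the highest mean over 12 arrays was used, without a filter, after leaving out 64 control probe sets. Differences were tested across 18193 genes with limma 3.58.1 in R 4.3.3 (group means, eBayes without trend, 8 residual degrees of freedom, two-sided, Benjamini-Hochberg, adjusted p under 0.05), and the p-values measure the spread between these arrays. The code was tested on simulated data. Tables and figures used Python 3.11.15, pandas 2.3.3 and matplotlib 3.10.9, and promoters came from RefSeq (GRCm38.p6).

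The members and lists were chosen with earlier results of these data known. Named are, per comparison, the 4 members with the lowest p, the fixed genes Atf4, Ddit3, Trib3, Asns and Chac1, and 1 gene per further pathway list, while each member's level is described. Members whose values are given beyond this rule were chosen after their values were seen.

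Replicate numbers were checked as pairs from the data. Deviations of SP and non-SP arrays of 1 number correlated at 0.66, 0.84 and 0.55 (untreated) and 0.75, 0.62 and 0.56 (treated), whereas untreated and treated arrays of 1 number did not correlate above 0. Alternatives were other scalings, a filter at a mean of 5, the mean of all probe sets, a trend in eBayes, the replicate block and arrays left out. The block joined SP and non-SP arrays of 1 number and treatment. For the antibody it joined untreated and treated arrays of 1 number and fraction.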

Additional observations from a re-analysis of the deposited data

Results flagged for a closer look

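Cbs, the enzyme that makes cystathionine from serine and homocysteine, stood out because its SP minus non-SP difference had one sign in all 3 untreated pairs and the other in all 3 treated pairs. It measured 7.78, 7.47 and 7.78 in untreated non-SP, 7.72, 7.26 and 7.61 in untreated SP, 7.40, 7.21 and 7.90 in treated non-SP and 7.75, 7.26 and 7.97 in treated SP cells. The pair differences were -0.06, -0.22 and -0.17 without and 0.35, 0.05 and 0.08 with the antibody. The difference of differences was 0.31 ± 0.32 on the log2 scale (SE), with an adjusted p of 1 by limma with Benjamini-Hochberg adjustment, and 0.767 with the replicate block, so it did not pass the test. Its other probe set gave means of -0.19 without and 0.10 with the antibody. In that probe set the SP array of treated pair 2 was the lower one, at 6.48 against 6.77. The treated pairs there were thus not of 1 sign, and SP was higher in 2 of 6 pairs. Opposite signs of this kind were found in 499 of 18193 genes (2.74%), and in the direction of Cbs in 169 (0.929%).

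Of the 54 pathway genes outside the list, Eif2ak2 (PKR) showed the same pattern. Its pair differences were -0.47, -0.05 and -0.60 without and 0.34, 0.60 and 0.05 with the antibody. The difference of differences was 0.70 ± 0.53 on the log2 scale (SE), with an adjusted p of 1 by limma with Benjamini-Hochberg adjustment and 0.767 with the replicate block, so it did not pass the test either, and it was 0.56 without the treated arrays numbered 2.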

How the results depend on the processing

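Calls were the same in every setting tried: 0 of 36 members passed the adjusted threshold in each of the 6 comparisons, the replicate block included. The median difference of the members relative to all genes moved by less than 0.22, a value larger than the medians. That value is the SD within groups of each array's median member level minus its median gene level. It is thus a spread of levels that leaves the pairs out, not a spread of the differences. The median difference kept its sign in the untreated (0.033 to 0.19) and mean (0.0092 to 0.13) fraction comparisons and for the antibody in non-SP cells (0.082 to 0.21). It changed sign in 2 of 13 settings for the treated fraction (-0.098 to 0.17), 3 of 14 for the antibody in SP cells (-0.085 to 0.15) and 2 of 20 for the interaction (-0.20 to 0.053), and without the treated arrays numbered 2 the first of these was -0.044. The block raised the number of genes with an unadjusted p under 0.05 from 4 to 305, 127 to 1311, 19 to 388 and 43 to 1002 for the fraction comparisons (untreated, treated, mean) and the interaction, with 1, 0, 1 and 0 members among them. For the antibody the block was another one, of untreated and treated arrays of 1 number within a fraction. Such arrays did not correlate above 0, so that pairing is not borne out by the data. It gave 431 genes in place of 585 in non-SP and 594 in place of 835 in SP cells. Among 76 differences of named genes, 28 changed sign in at least 1 setting, 72 of 1189 values in all and none past the threshold, and the cause was not tested. Some settings were chosen after seeing the data, namely leaving out both treated arrays numbered 2 or both untreated arrays numbered 1. With no depth, 3 arrays a group set the precision. Without the treated arrays numbered 2, the treated fraction difference was -0.037 for Eprs, 0.038 for Shmt2, -0.094 for Ddit3, -0.15 for Trib3 and -0.025 for Asns, and the antibody difference -0.10 for Asns in non-SP and 0.075 for Atf4 in SP cells. Without the untreated arrays numbered 1, the antibody difference in SP cells was 0.050 for Atf4, 0.12 for Ddit3, 0.16 for Trib3, 0.087 for Asns and 0.47 for Chac1. With centred arrays it was 0.060, 0.013, 0.035 and 0.0051 for Atf4, Trib3, Asns and Chac1, that of Hars in non-SP cells 0.014, and the untreated fraction difference of Atf4 0.0020. With the mean of all probe sets Atf4 gave 0.025 in the untreated and 0.0027 in the mean fraction comparison and -0.033 for the antibody in non-SP cells, Eif2ak4 -0.0096 in the mean fraction comparison, and Ddit3 -0.31 for the antibody in non-SP cells and 0.19 for the interaction. Leaving out 1 array at a time gave, for the untreated fraction difference, -0.13 to 0.052 (Atf4), -0.017 to 0.40 (Ddit3), -0.24 to 0.75 (Chac1) and -0.027 to 0.51 (Got1), and for the treated one -0.21 to 0.021 (Atf4), -0.13 to 0.14 (Ddit3), -0.31 to 0.27 (Trib3), -0.13 to 0.38 (Asns) and -0.30 to 0.24 (Chac1). Averaged over treatments it was -0.12 to 0.0032 (Atf4) and -0.15 to 0.34 (Chac1). For the antibody it was -0.075 to 0.13 (Atf4), -0.045 to 0.23 (Ddit3), -0.10 to 0.12 (Asns) and -0.11 to 0.64 (Chac1) in non-SP and -0.15 to 0.075 (Atf4), -0.27 to 0.12 (Ddit3), -0.44 to 0.16 (Trib3), -0.39 to 0.12 (Asns) and -0.51 to 0.47 (Chac1) in SP cells. For the interaction it was -0.19 to 0.035 (Atf4), -0.37 to 0.052 (Ddit3), -0.40 to 0.12 (Asns) and -0.81 to 0.17 (Chac1).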
